A study of Gallus gallus with 4 samples.

Results

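The genes described here make retinoic acid, break it down, carry it in the cell and read it in the nucleus, and they were measured in the posterior eye of chicks with form-deprivation myopia and in recovery from it. The 10 genes were listed by name and not by a rule on their values, but with earlier results of these data known. All 10 had at least 1 probe set on the Affymetrix chicken array. They had 18 probe sets in all among the 38535 of the array and 10 of the 13009 gene measures. The enzymes of synthesis (ALDH1A1, ALDH1A2 and ALDH1A3), both CYP26 enzymes of breakdown (CYP26A1 and CYP26B1), the carrier CRABP1 and the receptors RARA, RARB, RXRA and RXRG make up the set. Each of the 4 conditions was a single array, hybridised with a pool of total RNA from 5 chicks, taken from the right eye as retina, RPE (the retinal pigment epithelium) and choroid together. All chicks were Leghorn/New Hampshire, labelled male, and kept on a cycle of 12 hr of light. The control chicks wore no lens and were at post-hatch day 11. The FD_0hr, FD_6hr and FD_24hr chicks had been form-deprived with an occluder over the right eye, and their tissue was taken 0, 6 and 24 hr after it was removed, at post-hatch day 11, 11 and 12. The labels disagree on the length of form deprivation, with 7 days in the sample descriptions and 10 days from post-hatch day 2 in the treatment protocol. With 1 array per condition there were no replicates, so that every difference below compares 2 arrays and has no test, p-value or replicate error.

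Retinoic acid is made from vitamin A in 2 steps, of which the last, from retinal to retinoic acid, is carried out by the ALDH1A enzymes and cannot be reversed. The CYP26 enzymes oxidise retinoic acid and so end its action, and their genes, CYP26A1 above all, are themselves switched on by retinoic acid in many tissues. In the nucleus it binds retinoic acid receptors (RAR), which act on DNA as pairs with retinoid X receptors (RXR). In the chick eye retinoic acid made in the choroid is known as a signal of eye growth, with ALDH1A2 as the enzyme of choroidal cells, whereas the retina has its own enzymes, of which ALDH1A1 and ALDH1A3 mark the dorsal and the ventral part in the embryo.

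The values are log2 expression after RMA, so that a difference of 1 is a 2-fold difference. A gene or probe set is called dim where its mean over the 4 arrays is at or below 6.28, the 60th percentile of all probe sets. Brightness differs between probe sets of equally abundant RNA, so single probe sets are compared between arrays only with themselves. Gene measures are medians over probe sets on each array, so the probe set behind one can change between arrays. The one measure of spread that these arrays allow is that among probe sets of the same gene, over 2577 genes with several probe sets that are not dim. Its SD was 0.437 for FD_0hr minus control, 0.304 for FD_6hr minus FD_0hr, 0.265 for FD_24hr minus FD_6hr, 0.376 for FD_24hr minus FD_0hr and 0.323 for FD_24hr minus control. It describes the measurement and not the spread between chicks.

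The arrays differed in ways that touch these genes. HINTW, a gene of the female W chromosome, stood at a log2 expression of 9.36 on the control array and between 5.34 and 5.52 on the other arrays, against the label of male chicks for all. The 269 genes of the Z chromosome that were not dim had a median log2 difference of 0.46 for FD_0hr minus control and of -0.09 for FD_24hr minus FD_6hr. The sex of the chicks and form deprivation cannot be told apart in any difference from the control array. The arrays fell into pairs by their spiked-in hybridisation controls, which were alike within 0.355 for control and FD_0hr and within 0.255 for FD_6hr and FD_24hr. FD_0hr and FD_6hr were apart by 0.85 to 2.74 in these controls. Against the control array FD_6hr was apart by 1.205 to 2.935 and FD_24hr by 0.95 to 2.835. In any difference that crosses the pairs, this gap cannot be told apart from the condition of the chicks. For β-actin the signal of the 3′ probe set exceeded that of the 5′ probe set, a sign of RNA quality, by 3.72 at FD_0hr and by 2.39 to 2.85 on the other arrays. RNA quality and condition cannot be told apart in any difference that uses the FD_0hr array. FD_24hr minus FD_6hr uses neither the control array nor the FD_0hr array. Its arrays still differed in the β-actin gap, at 2.39 for FD_6hr and 2.85 for FD_24hr. They differed in age too, at post-hatch day 11 and 12. Neither can be told apart from the hours of recovery. The time of day of collection was not given and cannot be told apart from the hours of recovery. In pooled tissue, fewer cells of a type and less RNA per cell cannot be told apart either.

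Of the enzymes of synthesis, all 3 had a probe set with higher expression at the end of form deprivation than on the control array. ALDH1A3 had the widest range over the arrays of the members that were not dim. Its log2 expression was 6.45 on the control array, 7.96 at FD_0hr, 8.26 at FD_6hr and 7.37 at FD_24hr. The control array was thus the lowest and FD_6hr the highest, and the 3 form-deprived arrays all lay above control. The difference was 1.51 for FD_0hr minus control, which is 2.85-fold, and 70 of 6084 genes were higher by more. FD_6hr minus control was 1.81, or 3.51-fold, with 6 genes higher by more. Between FD_6hr and FD_24hr ALDH1A3 was lower by 1.85-fold, at -0.89, and 77 of the 6084 genes had a more negative difference. The gene was read by a single probe set of a kind that may also read other transcripts.

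ALDH1A2, the enzyme of the choroid, was read by 3 probe sets that did not go the same way. The brightest, whose listed sequence is a RefSeq mRNA, stood at a log2 expression of 9.07 on the control array, 10.11 at FD_0hr, 10.01 at FD_6hr and 9.57 at FD_24hr. On this probe set the control array was the lowest, FD_0hr was higher than control by 1.04, or 2.06-fold, and FD_6hr and FD_0hr differed by less than the SD among probe sets. From FD_6hr to FD_24hr the difference was -0.44, and FD_24hr was still above control by 0.50. The second probe set stood at 6.12, 5.86, 6.65 and 5.71 in the order control, FD_0hr, FD_6hr and FD_24hr. Here FD_6hr was the highest array, with differences of 0.79 for FD_6hr minus FD_0hr and -0.94 for FD_24hr minus FD_6hr. The third lay between 3.62 and 3.74 on all 4 arrays. Both of these were dim. The median over the 3 probe sets, which is the gene measure used in the study, follows the second probe set, so that ALDH1A2 counts as dim and has a difference of -0.26 for FD_0hr minus control. FD_24hr was lower than FD_6hr on the first and second probe sets and higher by 0.09 on the third.

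ALDH1A1 stood at a log2 expression of 6.12 on the control array, 6.76 at FD_0hr, 6.99 at FD_6hr and 6.86 at FD_24hr. The 3 form-deprived arrays lay close together, within 0.23, and all above control. FD_0hr minus control was 0.64 and FD_24hr minus control 0.74. The gene lies on the Z chromosome, and its difference at FD_0hr was higher than that of 59.5% of the Z genes that were not dim. For FD_6hr minus control this share was 77% and for FD_24hr minus control 78.8%. Without the control array ALDH1A1 had differences of 0.23 for FD_6hr minus FD_0hr and of -0.13 for FD_24hr minus FD_6hr, both smaller than the SD among probe sets.

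**Figure D1:**
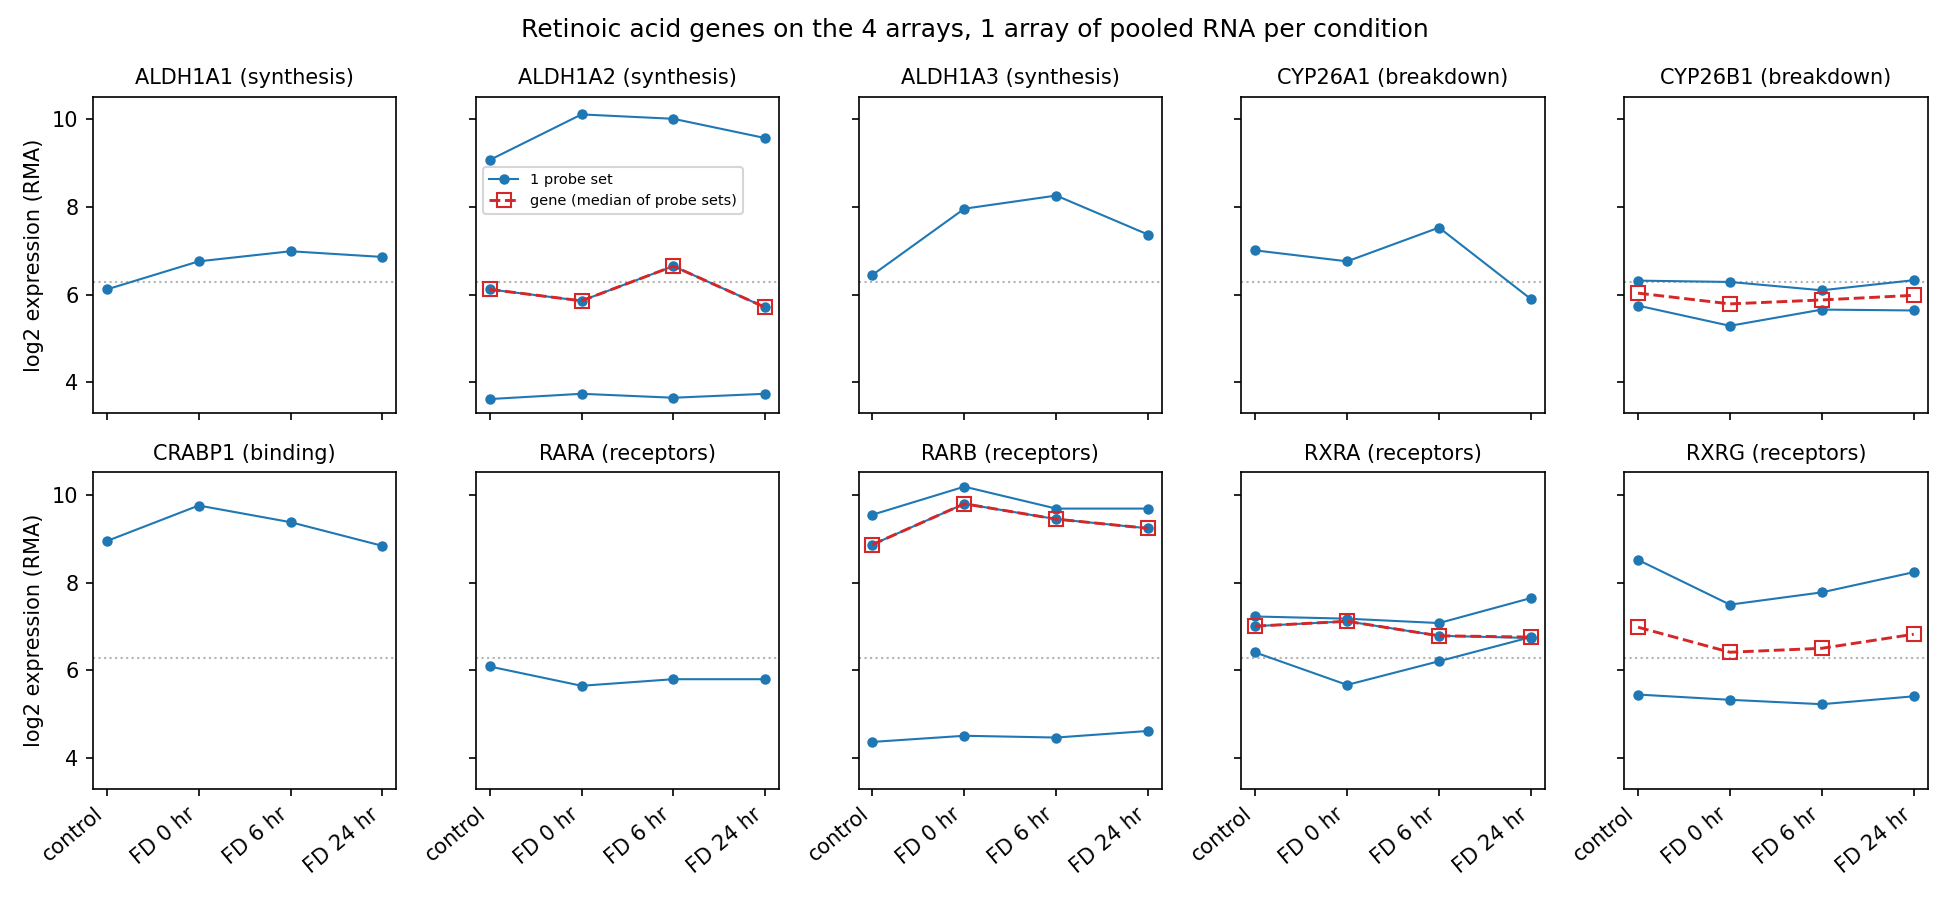
Log2 expression (y axis) of the 10 retinoic acid genes on the control, FD_0hr, FD_6hr and FD_24hr arrays (x axis), with 1 array of pooled RNA per condition. Blue points and lines are single probe sets, red squares the median over a gene's probe sets where there are several, and the dotted line marks the dim limit of 6.28. ALDH1A3 runs from 6.45 on the control array to 8.26 at FD_6hr, CYP26A1 from 7.53 at FD_6hr to 5.90 at FD_24hr, and the median of ALDH1A2 follows its dim middle probe set.

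Of the enzymes of breakdown, CYP26A1 moved most between 6 and 24 hr of recovery. Its log2 expression was 7.01 on the control array, 6.76 at FD_0hr, 7.53 at FD_6hr and 5.90 at FD_24hr. FD_24hr was the lowest array and FD_6hr the highest, with control and FD_0hr between them and apart by 0.25, less than the SD among probe sets. The difference was 0.77 for FD_6hr minus FD_0hr, with 119 of 6084 genes higher by more, and -1.63 for FD_24hr minus FD_6hr, a 3.10-fold lower level. Only 4 of the 6084 genes had a more negative difference over that step. FD_24hr minus control was -1.11, or 2.16-fold lower, and 60 genes were lower by more. CYP26A1 had a single probe set, and its value of 5.90 at FD_24hr lay below 6.28, the limit set for a mean. The size of its differences at FD_24hr thus rests on 1 reading at low signal.

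CYP26B1, the other retinoic acid hydroxylase, was dim on both of its probe sets. One lay between 6.10 and 6.33 on the log2 scale over the 4 arrays and the other between 5.29 and 5.75. Their differences for FD_24hr minus FD_6hr were 0.23 and -0.02, so that CYP26B1 showed no difference like that of CYP26A1, although low signal hides differences. The third enzyme of the family, CYP26C1, was dim as well, with a median of 4.81, 4.81, 4.87 and 4.98 over its probe sets in the order control, FD_0hr, FD_6hr and FD_24hr.

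CRABP1, which binds retinoic acid in the cytoplasm, stood at a log2 expression of 8.95 on the control array, 9.76 at FD_0hr, 9.38 at FD_6hr and 8.84 at FD_24hr. It was highest at FD_0hr, lower on each array of recovery and, at FD_24hr, within 0.11 of control. FD_0hr minus control was 0.81, or 1.75-fold, FD_24hr minus FD_6hr -0.54 and FD_24hr minus FD_0hr -0.92. For FD_24hr minus FD_6hr, 338 of 6084 genes had a more negative difference. The gene had 1 probe set.

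Among the receptors, RARB and RXRG differed from control in opposite directions at the end of form deprivation. RARB, whose gene is itself a classical target of retinoic acid, had 2 probe sets that were not dim. One stood at 8.87 on the control array, 9.80 at FD_0hr, 9.45 at FD_6hr and 9.24 at FD_24hr, and the other at 9.55, 10.19, 9.69 and 9.69 in the same order. Both were lowest on the control array and highest at FD_0hr, by 0.93 and 0.64 over control. FD_6hr minus FD_0hr was -0.35 and -0.50, and FD_24hr minus FD_6hr was -0.21 and 0.00, less than the SD among probe sets. The third probe set was dim, between 4.37 and 4.62.

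RXRG, an RXR of cone photoreceptors in chick and mouse, had 1 probe set that was not dim. Its log2 expression was 8.52 on the control array, 7.50 at FD_0hr, 7.78 at FD_6hr and 8.24 at FD_24hr. The control array was the highest and FD_0hr the lowest, and each array of recovery was higher than the one before. FD_0hr minus control was -1.02, or 2.03-fold lower, FD_24hr minus FD_6hr was 0.46 and FD_24hr minus control was -0.28. The other probe set was dim, between 5.23 and 5.45, and brought the difference of the gene measure to -0.57. Of 8 cone markers 7 were measured, and their mean log2 level was 10.9 on the control array, 10.4 at FD_0hr, 10.6 at FD_6hr and 11.0 at FD_24hr. For FD_0hr minus control 3 of them were higher and 4 lower, with a median of -0.21. The red cone opsin OPN1LW was at -2.31, ARR3 at -1.15, GUCA1A at -0.745 and GNAT2 at -0.21. PDE6C was at 0.79, PDE6H at 0.18 and CNGA3 at 0.01. For FD_24hr minus FD_6hr 5 were higher and 2 lower, with a median of 0.72. The part of cone number in the RXRG values was not tested.

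RARA and RXRA are the widely expressed receptors of each class. Their gene measures ranged less over the arrays, by 0.44 and 0.36, than those of RARB and RXRG, by 0.93 and 0.57. This does not hold for single probe sets of RXRA. RARA was dim, at 6.09 on the control array, 5.65 at FD_0hr, 5.80 at FD_6hr and 5.80 at FD_24hr. RXRA had 3 probe sets, and their differences for FD_0hr minus control were -0.05, 0.11 and -0.74, the last on a dim probe set. For FD_24hr minus FD_6hr they were 0.57, -0.05 and 0.55, where the SD among probe sets was 0.265. For FD_24hr minus FD_0hr they were 0.47, -0.38 and 1.09, in the same order of probe sets. The gene measure of RXRA was 7.01, 7.12, 6.79 and 6.76 in the order control, FD_0hr, FD_6hr and FD_24hr. Its FD_24hr value is that of the dim probe set and the others are those of the second probe set. Differences of the gene measure that use FD_24hr thus mix probe sets. With probe sets that disagree in sign in both comparisons, no direction is given for RXRA.

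**Figure D2:**
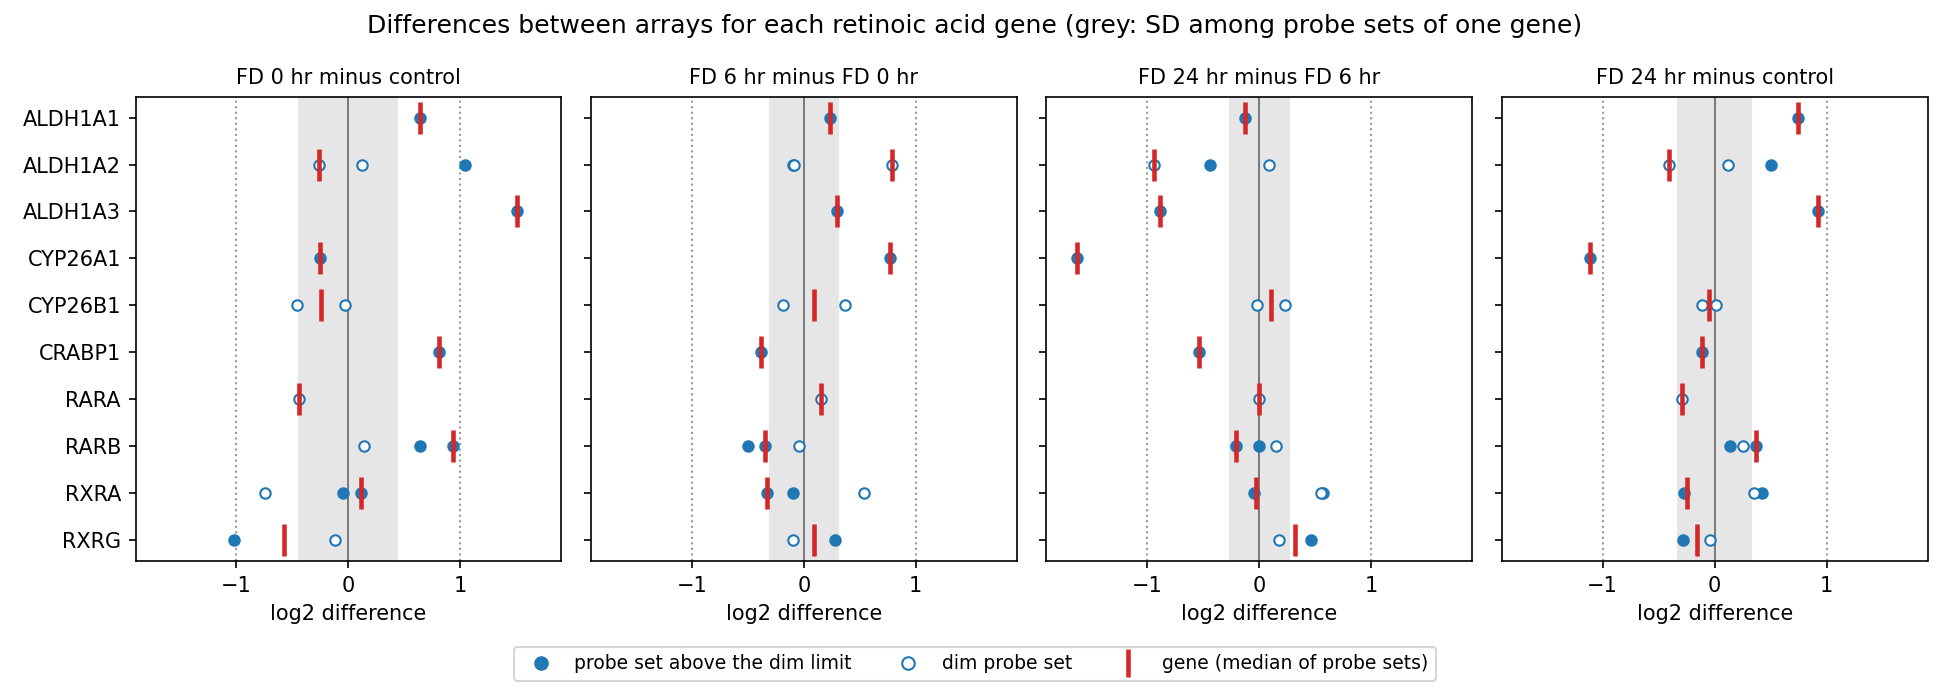
Log2 differences between arrays (x axis) for each retinoic acid gene (y axis) in 4 comparisons of single arrays. Filled points are probe sets above the dim limit, open points dim probe sets, red bars the median over a gene's probe sets, dotted lines a difference of 1 and the grey band 1 SD among probe sets of the same gene on either side of 0. ALDH1A3 lies at 1.51 for FD_0hr minus control and CYP26A1 at -1.63 for FD_24hr minus FD_6hr, while the probe sets of ALDH1A2 differ in sign in each comparison shown.

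Counted over the set, 7 of the 10 genes were above the dim limit, and none of the other 3 (ALDH1A2, CYP26B1 and RARA) had a gene measure that differed by 1 or more. For FD_0hr minus control, 1 gene (ALDH1A3) was higher by at least 1 and 0 were lower, where 4.59% of all 6084 genes were higher and as many lower. By probe set, 10 of the 18 were above the limit, of which those of ALDH1A3 and the brightest of ALDH1A2 were higher by at least 1 and that of RXRG lower, where 4.78% of 15406 probe sets were higher and 5.82% lower. Over the 10 genes, 5 were higher and 5 lower, with a median of -0.07 against a median of 0.00 over all 13009 genes. Of all genes 49.4% were higher. The members thus went both ways at the end of form deprivation. Dim probe sets share in the gene medians of ALDH1A2 and RXRG, and at FD_24hr in that of RXRA. They also set which probe set is the median of RARB and, on the other arrays, of RXRA. Without them FD_0hr minus control was 0.785 for RARB, against 0.93, and 0.03 for RXRA, against 0.11. For FD_0hr minus control the members' median turned to 0.31 with each gene's brightest probe set and to 0.71 without dim probe sets. The latter setting leaves out CYP26B1 and RARA, which had only dim probe sets, so that its median covers fewer genes.

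For FD_6hr minus FD_0hr no member was higher by at least 1, where 0.838% of all genes were, and none lower, where 0.46% were. Of the 10 genes 7 were higher and 3 lower, where 49.8% of all genes were higher, with a median of 0.12 against 0.00. For FD_24hr minus FD_6hr, CYP26A1 was the 1 member lower by at least 1, where 0.937% of genes were lower, and none was higher, where 0.312% were. In that step 2 genes were higher, 7 lower and RARA equal, where 46.6% of all genes were higher. The median was -0.17 against -0.01 for all genes. All 3 enzymes of synthesis were among the 7 lower genes, with ALDH1A1, at -0.13, within the SD among probe sets. For FD_24hr minus FD_0hr none was higher or lower by at least 1, where 1.76% and 2.43% of genes were, and the median was -0.26 against -0.01. For FD_24hr minus control CYP26A1 was the 1 member lower by at least 1, where 1.43% of genes were, and none was higher, where 0.986% were. There 3 genes were higher and 7 lower, where 46.3% of all genes were higher, with a median of -0.14 against -0.02. The 7 include ALDH1A2 at -0.41, whose brightest probe set was at 0.50. They also include RXRA at -0.25, with probe sets at 0.42, 0.35 and -0.27. The sign of this median depended on how probe sets were summarised. All counts with FD_24hr take RXRA by a gene measure that mixes probe sets. Set against control, FD_6hr had 1 member higher by at least 1 (ALDH1A3), where 1.82% of genes were, and none lower, where 1.2% were. In this comparison 6 genes were higher and 4 lower, where 49.0% of all genes were higher. The median was 0.48 against 0.00 for all genes. With few members and shares this low, a count of 0 or 1 is no result about the set. These comparisons share arrays, so that their counts do not stand for separate evidence.

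Other genes of retinoic acid handling were taken from a list of 56, of which 44 were measured and 31 were above the dim limit. For FD_0hr minus control 14 were higher, 29 lower and 1 equal, with a median of -0.11. Of all genes 49.4% were higher in that comparison, and of those above the dim limit 45.3%. By the same rule of a difference of at least 1, which 4.59% of genes met in each direction, the coregulator MED1, which links nuclear receptors to the transcription machinery, was lower by 1.19, and NR2F2, an orphan nuclear receptor that can restrain retinoic acid signalling, had a difference of -1.09. PDK4, a brake on pyruvate dehydrogenase that retinoic acid induces in some cells, was higher by 1.14. For FD_6hr minus FD_0hr 30 were higher, 13 lower and 1 equal, with a median of 0.07 and none past 1, where 49.8% of all genes and 55.9% of those above the dim limit were higher. APOA1, an apolipoprotein whose gene responds to retinoids, had a difference of 0.87 in that step after -0.85 for FD_0hr minus control. BMP2, another gene of the list, was dim by its mean and had a larger difference of 0.96 in that step. It stood at 5.45 on the control array, 5.85 at FD_0hr, 6.81 at FD_6hr and 6.46 at FD_24hr.

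For FD_24hr minus FD_6hr, 17 of the 44 were higher and 27 lower, with a median of -0.09. The arrays as a whole leaned the same way, with 46.6% of all genes and 44.1% of those above the dim limit higher, so that these counts are read against those shares. Among the enzymes that convert retinol, retinal and carotenoids, 7 of the 8 measured were lower and 1 was higher, with a median of -0.42, and the one higher, ADH1C, was dim. RDH5, a retinol dehydrogenase of the pigment epithelium that serves the visual cycle, stood at 10.16 on the control array, 9.33 at FD_0hr, 9.97 at FD_6hr and 8.96 at FD_24hr. It was thus lowest at FD_24hr, with a difference of -1.01 from FD_6hr, where 0.937% of genes were lower by at least 1, and of -1.20 from control. Of the rest, RDH10, which makes the retinal for retinoic acid synthesis, had a difference of -0.52 from FD_6hr to FD_24hr, RDH11 of -0.45, RDH14, which was higher by 1.09 at FD_6hr than on the control array, of -0.50 and BCO1, which cleaves β-carotene to retinal, of -0.39. DHRS3, which turns retinal back to retinol, was at -0.27. NR2F2 stood at 10.50, 9.41, 9.99 and 9.21 in the order control, FD_0hr, FD_6hr and FD_24hr, and was lower by 1.29 at FD_24hr than on the control array.

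Genes known as targets of retinoic acid had 3 members higher and 11 lower for FD_0hr minus control, with a median of -0.125. For FD_6hr minus FD_0hr 10 were higher and 4 lower, with a median of 0.14. For FD_24hr minus FD_0hr 10 were also higher and 4 lower, with a median of 0.205. Of all genes 49.4%, 49.8% and 48.1% were higher in these comparisons, and of those above the dim limit 45.3%, 55.9% and 51.05%. Above that limit were 12 of the targets. From FD_6hr to FD_24hr 5 targets were higher and 9 lower, with a median of -0.15. In that step 46.6% of all genes and 44.1% of those above the dim limit were higher. PDK4 had a difference of -1.23 over this step and of -1.51 for FD_24hr minus FD_0hr. TGM2, a transglutaminase, had a difference of -0.77, RARRES1 of -0.62 and CD38, an enzyme of NAD breakdown, of -0.52, while the homeobox gene MEIS1 was at 0.77. The list is of genes described as targets in other cells, and their response in this tissue was not measured here. Of the genes of entry and storage, RBP4, which carries retinol, had a difference of 0.70 and LRAT, which stores it as ester, of -0.48.

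**Figure D3:**
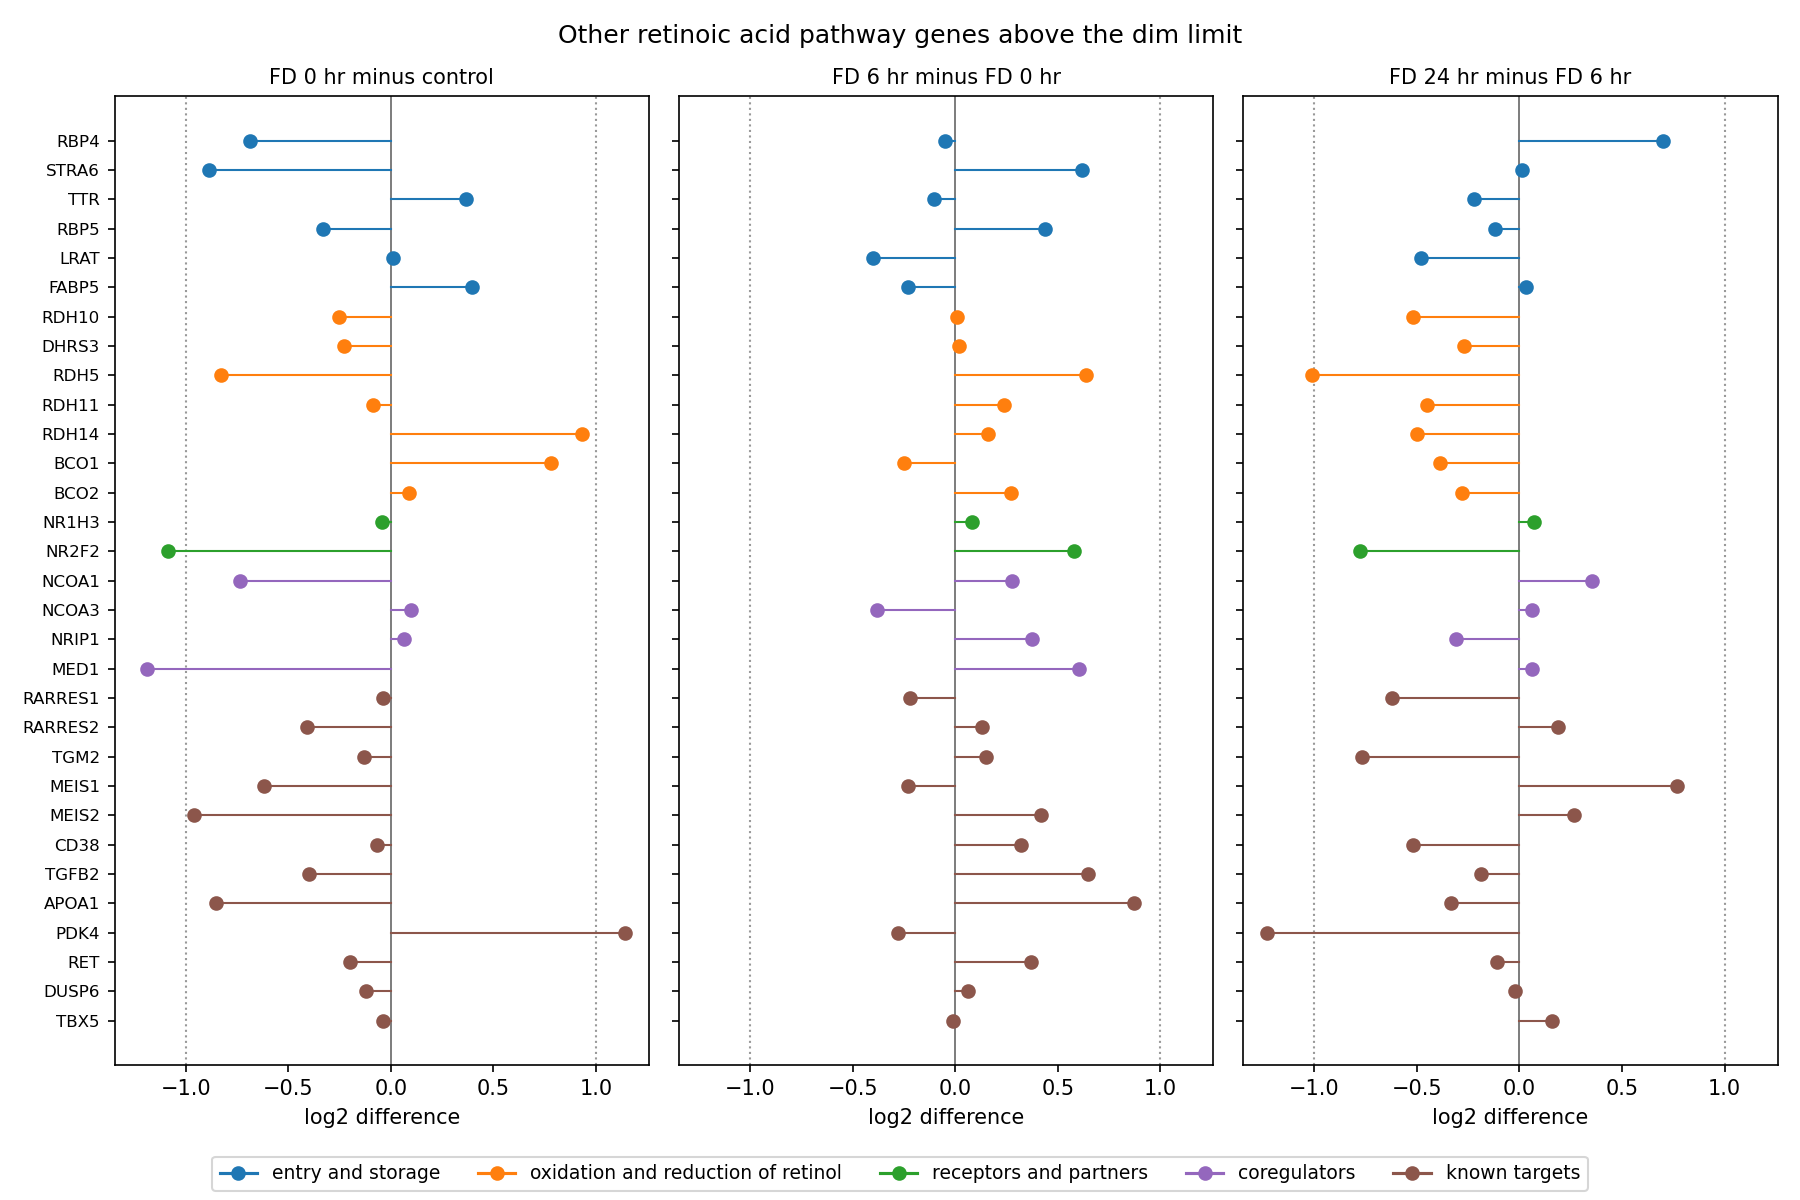
Log2 differences (x axis) of the 31 other retinoic acid pathway genes above the dim limit (y axis), coloured by role, for FD_0hr minus control, FD_6hr minus FD_0hr and FD_24hr minus FD_6hr. Dotted lines mark a difference of 1. In the right panel all of the enzymes of retinol oxidation and reduction that are shown lie below 0, with RDH5 at -1.01, and PDK4 lies at -1.23.

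Retina, pigment epithelium and choroid were all represented in the RNA, and the level of their markers differed between the arrays. The 7 markers of pigment epithelium had a mean log2 level of 9.62, 9.33, 9.55 and 9.40 in the order control, FD_0hr, FD_6hr and FD_24hr, and for FD_24hr minus FD_6hr 6 of 7 were lower with a median of -0.18. RPE65, the isomerase of the pigment epithelium, had a difference of -0.57. The 6 markers of Müller glia had a mean level of 11.1, 10.8, 11.2 and 10.8, and 5 of 6 were lower over that step, with a median of -0.24.

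Markers of pigment cells, 6 of 6 measured and 5 above the dim limit, had a mean level of 8.92, 9.82, 9.34 and 9.73 in the same order of arrays. For FD_0hr minus control 4 were higher and 2 lower, with a median of 0.88, and MLANA differed by 3.22, TYRP1 by 1.39, DCT by 1.17 and PMEL by -0.96. Pigment cell markers as a list were thus highest at FD_0hr, as were CRABP1, RARB and the brightest probe set of ALDH1A2. The mean levels of macrophage, fibroblast, smooth muscle and vessel markers were also highest at FD_0hr, so this was not particular to pigment cells. Macrophage markers, 6 of 7 measured and 5 above the limit, had a mean level of 7.33, 7.69, 7.61 and 7.30. For FD_0hr minus control 3 were higher, with LY86 at 1.56, and 3 lower, with CSF1R at -0.395 and CD74 at -0.24. For FD_6hr minus FD_0hr 5 were higher and only LY86, at -0.96, was lower. Their highest mean at FD_0hr thus rested on LY86.

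Single markers of connective tissue and of smooth muscle went both ways, although most were higher at FD_0hr than on the control array. Of 7 fibroblast markers 5 were higher and 2 lower for FD_0hr minus control, where 49.4% of all genes were higher. Their mean levels were 6.95, 7.14, 6.97 and 6.82 in the same order of arrays. Above the dim limit there were 3, with COL1A1 at -1.09, DCN at 0.77 and COL3A1 at 0.24 for FD_0hr minus control. Of 4 smooth muscle markers measured 2 were above the limit, with MYH11 at 1.71 and TAGLN at -1.18. In that comparison 3 of the 4 were higher and 1 lower, and their mean levels were 7.23, 7.47, 7.30 and 7.20. The vessel markers had 1 of 7 above the limit, CDH5, at 1.35. Of the 7, 6 were higher and 1 lower, and their mean levels were 5.43, 5.79, 5.58 and 5.39.

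Markers of amacrine and horizontal cells, 9 of 11 measured, were lower at FD_0hr than on the control array in all 9 cases, with a median of -0.99 and mean levels of 9.52, 8.45, 9.05 and 9.26 over the 4 arrays in the same order. RXRG followed this order too, while ALDH1A3, CRABP1 and RARB were higher at FD_0hr than on the control array. Markers of other lists, such as COL1A1, TAGLN, NEFM and THY1, had the same order, so it was not particular to amacrine and horizontal cells. Of the ganglion cell markers 6 were lower and 1 higher for FD_0hr minus control, with a median of -0.295. The part of the cell makeup of the pools in the values of the retinoic acid genes was not tested.

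The genes whose pattern over the 4 arrays was closest to a member were taken by the distance between log2 values centred on each gene's mean, among the 6084 genes above the dim limit. For CYP26A1 these were MYO3A, a myosin of sensory cells, at a distance of 0.321, WDCP at 0.329, NDRG1, a gene of stress responses, at 0.388, G0S2, an inhibitor of triglyceride breakdown, at 0.402 and MID1IP1, a regulator of fatty acid synthesis, at 0.403. MYO3A stood at 6.61 on the control array, 6.70 at FD_0hr, 7.39 at FD_6hr and 5.47 at FD_24hr. All 5 were highest at FD_6hr and lowest at FD_24hr. For ALDH1A3 they were F3, the tissue factor that starts coagulation, at 0.317, TES, a protein of focal adhesions, at 0.346, ATP6AP1L at 0.367, TTC39B at 0.406 and CRYAB, a small heat shock protein, at 0.408. All 5 were lowest on the control array, and 4 of them were highest at FD_6hr, with CRYAB highest at FD_0hr. For the gene measure of ALDH1A2, which rests on a dim probe set, they were TTC8, G0S2, ABCD3, EML1 and TMEM38A, at 0.193 to 0.251. For its brightest probe set they were CHORDC1, RPF2, ERAP1, SH3GL3 and BIVM, at 0.05 to 0.086, a list made after the values had been seen. With G0S2 the single name in more than 1 of these lists, the lists for the measures of ALDH1A2 have no gene in common. With 4 points per gene such likeness is easily met, and it is a description of these arrays.

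**Figure D4:**
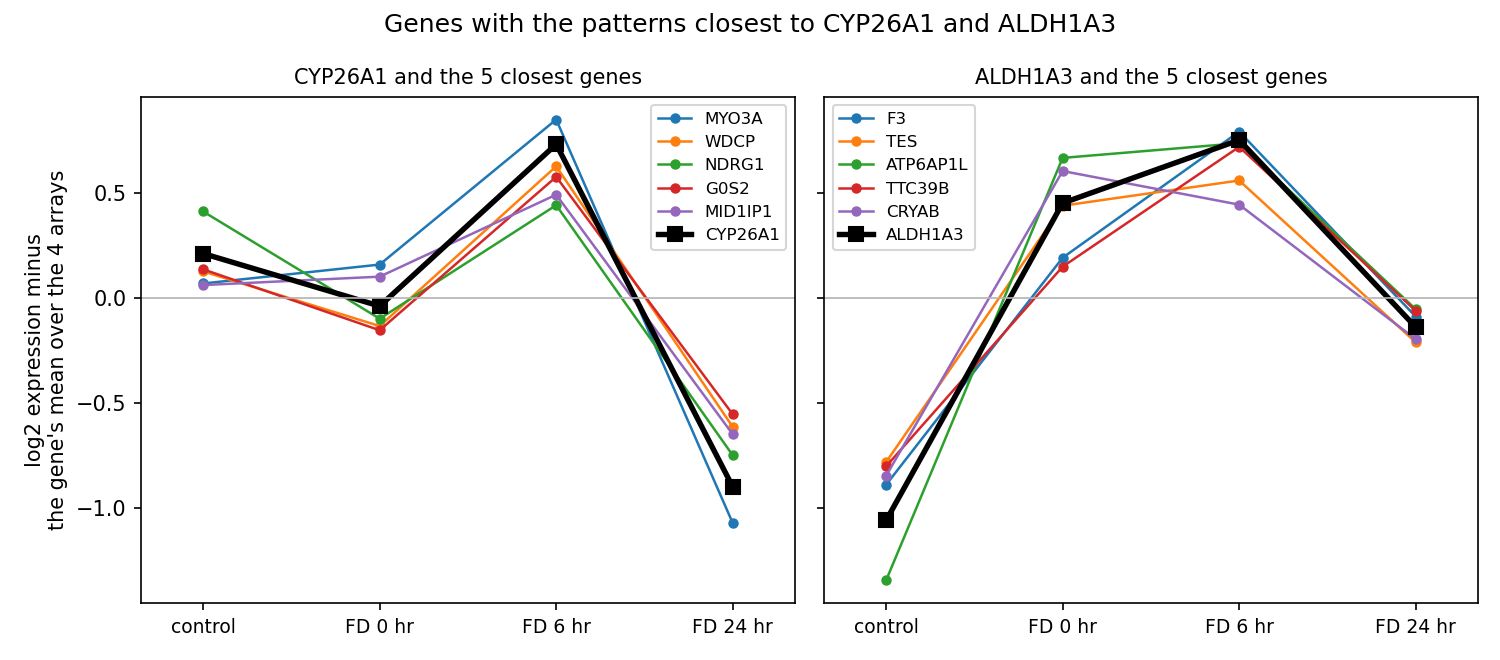
Log2 expression minus each gene's mean over the 4 arrays (y axis) on the control, FD_0hr, FD_6hr and FD_24hr arrays (x axis), for CYP26A1 (left) and ALDH1A3 (right) in black and for the 5 closest genes of each in colour. CYP26A1 and its 5 genes share a peak at FD_6hr and a low point at FD_24hr, and ALDH1A3 and its 5 genes share a low point on the control array.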

How the data were processed

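Total RNA was pooled from 5 chicks per condition and hybridised to 4 Affymetrix chicken arrays. The deposited values are log2 expression, which the authors obtained by RMA in Affymetrix Expression Console. MAS5 is a further name in the submitters' notes, with no stated role. By the study's methods, arrays of form-deprivation induction from another series were modelled together with these. That the deposited values come from that run was not given in the sources used here. Array medians lay between 5.73 and 5.74, and no further scaling was applied.

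By the platform's annotation, 27178 probe sets had 1 gene symbol, 177 several and 11180 none. Only probe sets with 1 symbol entered, and several of a gene were summarised by their median as in the study, for 13009 genes. Chromosomes came from RefSeq for GRCg7b by Entrez ID. The 10 members, the other gene lists and the markers were chosen with earlier results of these data known. Named genes are the members, listed genes with a difference of at least 1 above the dim limit with others of their group as examples chosen after their values were seen, and the 5 genes closest to ALDH1A2 (for its brightest probe set too, added later), CYP26A1 and the member with the widest range. With 1 array per condition no test was possible, and precision is limited by this number. The counting was tried on simulated data with planted differences larger than 1. This checks the counting itself and not how firm the differences between these arrays are. The alternatives were other summaries of probe sets, scalings and dim limits. Further ones left out the genes of Z and W or put FD_6hr in place of FD_0hr, which compares another array with control. Python 3.11.15, NumPy 2.4.6, pandas 2.3.3 and Matplotlib 3.10.9 were used. No sequences are shown.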

Additional observations from a re-analysis of the deposited data

How the results depend on the processing

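The values of ALDH1A2, RXRA and RXRG depended on how their probe sets, which differ, were summarised. RXRA for FD_24hr minus FD_0hr was 0.39 by the mean, 0.47 by the brightest and 0.045 without dim probe sets, against -0.36, and RXRG for FD_0hr minus control was -1.02 by the brightest, against -0.57. With FD_6hr in place of FD_0hr the median of the members was 0.48, but this compares another array and is not a change of processing. A setting without dim probe sets, chosen after seeing the data, leaves out CYP26B1 and RARA. There the median of the remaining members for FD_0hr minus control was 0.71, against -0.07 for all members. This median was 0.71 over fewer genes and is not a change of processing alone. The members' median for that comparison was 0.31 by the brightest probe set and without probe sets open to several transcripts. It was 0.04 by the mean of the probe sets, so that its sign is not settled. For FD_24hr minus control it lay between 0.01 and 0.17 in these 4 settings, against -0.14, and for FD_6hr minus FD_0hr at -0.0025 without probe sets open to several transcripts, against 0.12. Members higher by at least 1 numbered 2 with the brightest probe set of each gene or without dim probe sets, when 1 member was also lower, and 0 without probe sets open to several transcripts, which leaves out ALDH1A3 and RARA. ALDH1A2 was at 1.04 by its brightest probe set, 0.30 by the mean of its probe sets and 0.58 without such probe sets. CYP26A1 has 1 probe set, so that only the scalings could move it, and it was at -1.64 for FD_24hr minus FD_6hr with median centring, against -1.63.

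By the brightest probe set, 460 genes were higher and 437 lower for FD_0hr minus control, 175 and 225 for FD_24hr minus FD_0hr, and 32 and 88 for FD_24hr minus FD_6hr. In that setting 105 were higher for FD_24hr minus control and 49 lower for FD_6hr minus FD_0hr. Without dim probe sets 430 were higher for FD_0hr minus control, 96 higher for FD_24hr minus control and 91 lower for FD_24hr minus FD_6hr. With FD_6hr in place of FD_0hr, which is another comparison and not another processing, 111 were higher and 73 lower than control. Without genes of Z and W, also chosen after seeing the data, 31 were higher for FD_24hr minus control. Without probe sets open to several transcripts 27 were higher for FD_6hr minus FD_0hr. The main counts were 279 and 279, 107 and 148, 19 and 57, 60 and 87, and 51 and 28 for FD_0hr minus control, FD_24hr minus FD_0hr, FD_24hr minus FD_6hr, FD_24hr minus control and FD_6hr minus FD_0hr. The cause of these shifts was not tested. Of 200 medians and counts under alternatives, those with FD_6hr in place of FD_0hr included, 178 stayed close. Medians among them moved by less than the SD among probe sets and counts by no more than 1.5 times. By this rule a median can change sign and still be among the 178. The median of the members for FD_0hr minus control did so by the brightest probe set. The 178 are thus no measure of how firm the signs are. No paired analysis was possible because each condition had 1 array. Low signal limits what can be seen of CYP26B1, CYP26C1 and RARA, and of CYP26A1 at FD_24hr.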
